A study of Mus musculus with 12 samples.

Results

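Cutaneous squamous cell carcinomas (SCC) that arose in mice under chronic ultraviolet radiation (UVR) were compared between TAp63-/- animals (4 libraries) and Wild-type (WT) animals (2 libraries). These 6 libraries were chosen by their labels alone, as every SCC library of either genotype among the 12 libraries of the study. All mice were of the C57Bl6 strain. The tumour-bearing mice were over 35 weeks old and had received 2.5 kJ of UVR per square metre 3 times a week. Untreated dorsal skin from mice aged 4 weeks, 3 WT and 3 TAp63-/- libraries, served as the background for the same genotype contrast. The skin therefore differs from the tumours in age and irradiation as well as in tissue. The tumours were dissected masses, so the libraries hold RNA from carcinoma cells and from any other cells in the mass. Which allele removes TAp63, and in which cells, is not given in the sources used here, and a miRNA library cannot check the loss of TAp63 itself. Nothing in the labels ties a library to its own mouse. The p-values therefore reflect only how much these libraries vary, and some of that variation could be technical.

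p63 is a p53-family transcription factor of stratified epithelia. Its TA isoforms carry an N-terminal transactivation domain that the more abundant ΔN isoforms of basal keratinocytes lack, and TAp63 is known to activate transcription of the miRNA-processing enzyme Dicer1 and of miR-130b. A miRNA is cut from a hairpin into a 5p and a 3p arm and recognises its target mRNAs mainly through its seed, bases 2 to 8 of the mature strand, so miRNAs with the same seed can share targets.

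The sequences below are those of some miRNAs described in the tumour comparison, 5′ to 3′, with the seed in capitals (RefSeq, GRCm38.p6). They are grouped by shared seed, except for both arms of miR-338 at the end.
miR-20b-5p: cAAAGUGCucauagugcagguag
miR-20a-5p: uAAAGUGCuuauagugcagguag
miR-17-5p: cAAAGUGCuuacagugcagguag
miR-106b-5p: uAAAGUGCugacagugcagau
miR-93-5p: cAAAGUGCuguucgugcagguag
miR-449a-5p: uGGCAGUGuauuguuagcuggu
miR-34a-5p: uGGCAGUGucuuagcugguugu
miR-34b-5p: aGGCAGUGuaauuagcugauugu
miR-204-5p: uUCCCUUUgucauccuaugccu
miR-211-5p: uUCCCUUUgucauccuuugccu
miR-338-3p: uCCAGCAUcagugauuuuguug
miR-338-5p: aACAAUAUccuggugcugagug

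Of the 544 tested miRNAs, RefSeq held a mature sequence for 445. Counted from the 5′ end, miR-20b-5p differs from miR-20a-5p by U1C and U10C and from miR-17-5p by U10C and C12U, and miR-211-5p differs from miR-204-5p by A17U alone. How the authors' counting divided reads between such near copies is not given in the sources used here, so the levels of these pairs are uncertain to that extent.

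The comparison of the 2 genotypes separated few miRNAs. Values are the authors' deposited log2 values, which have a floor at 3.32, and differences are TAp63-/- minus WT in log2 units. Of 544 miRNAs, limma called 1 at an adjusted p under 0.05, miR-20b-5p, which was lower in the TAp63-/- tumours and was above the floor in no library other than the 2 WT tumours (0.184% of the miRNAs tested were called lower and 0% higher). At an unadjusted p under 0.05 there were 46 (8.46%), of which 21 were higher (3.86%) and 25 lower (4.6%). The median size of the difference over all 544 was 0.38. The 95% confidence interval of a difference had a median half-width of 0.96. For a typical miRNA, an observed difference under 1.95-fold in either direction therefore could not be told from none, even before adjustment. Larger observed differences were also not called after adjustment, up to 2.94 log2 units for miR-5117-5p. The interval lay within 1 log2 unit of 0 for 154 miRNAs. The spread was estimated from tumour and skin libraries together, and the tumour libraries varied more. Their library quality weights were 0.44 to 0.62, against 0.84 to 3.74 in skin, a lower weight marking a more variable library. The SEs and intervals of the tumour differences may therefore be too small.

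Every TAp63-/- tumour lay above both WT tumours for 33 miRNAs (6.07%) and below both for 23 (4.23%). An exact permutation test of 4 tumours against 2 has 15 assignments and cannot give a two-sided p under 0.133, so these separations cannot pass a test on their own. With genotype labels dealt at random and no ties, each direction would arise at a rate of 0.0667. Neither 6.07% nor 4.23% exceeds that rate, so being separate does not by itself single out a miRNA. Other scalings moved the split. It was 31 above and 43 below with quantile normalization repeated on the tested miRNAs, 33 and 33 with median-ratio scaling, and 27 and 55 with equal sums without the 5 most abundant miRNAs. In the repeated quantile normalization and the equal sums, values were not set back to a common floor. Floor values then differ between libraries and can count as separate, and the part of this in the split was not tested. The TAp63-/- libraries also held more miRNAs above the floor, with 432, 489, 545 and 476 against 402 and 420 in the WT tumours. Of the 33, 9 were at the floor in both WT tumours, and of the 23, 1 was at the floor in all TAp63-/- tumours. Among all tested miRNAs, 95 were at the floor in both WT tumours and 11 in all TAp63-/- tumours. A group of 2 libraries is more easily at the floor throughout than a group of 4, so these floor counts are not alike. What part these detection counts play in the split was not tested.

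**Figure D1:**
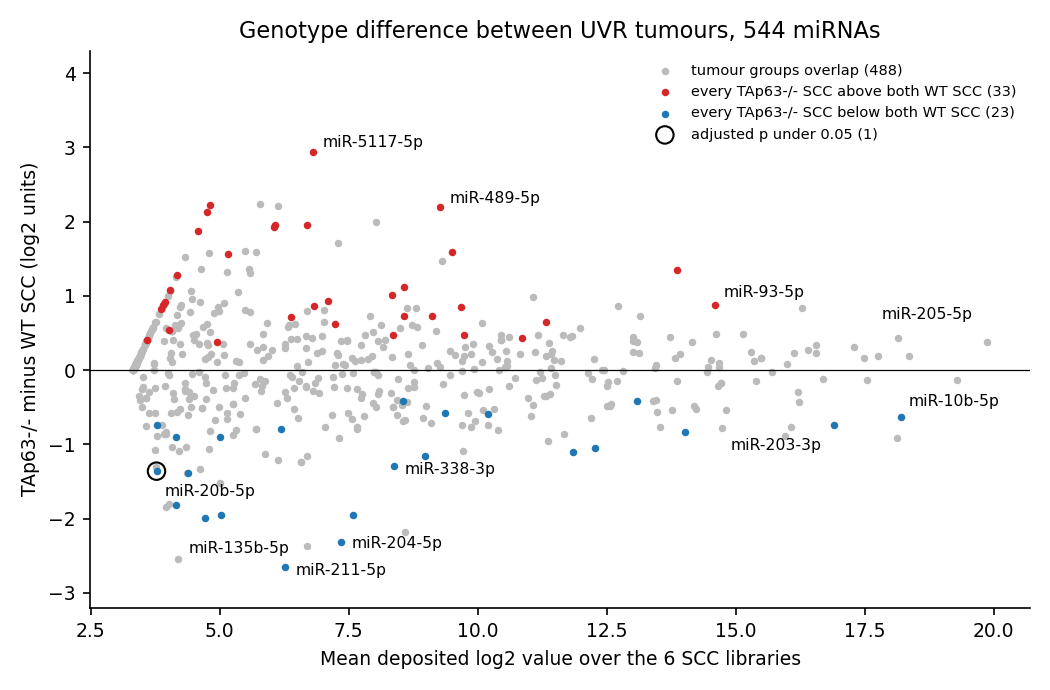
Difference between TAp63-/- and WT SCC (vertical axis, log2 units) against the mean deposited log2 value over the 6 SCC libraries (horizontal axis) for 544 miRNAs, 1 point each. Red and blue points are the 33 and 23 miRNAs whose tumour groups do not overlap, and the ring marks miR-20b-5p, the only miRNA called, which sits close to the floor.

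miR-20b belongs to the growth-promoting miR-17 seed family and is encoded in the X-linked miR-106a-363 cluster. Its hairpin lies on chromosome X at 52742113 to 52742192 (GRCm38, minus strand), where no other gene is annotated. miR-20b-5p stood at 4.32 and 5.04 in the WT tumours and at the floor in all 4 TAp63-/- tumours and all 6 skin libraries. The tumour groups did not overlap, and the difference was -1.36 ± 0.19 (SE, limma adjusted p = 0.0107). A miRNA was tested when at least 2 libraries were above the floor, and miR-20b-5p met this only through the WT tumours, so it had to differ. The other 10 libraries have no spread at the floor, so the SE is too small and the call carries little weight. With the 6 tumours fitted alone the adjusted p was 0.664, and over the other alternatives in which it was tested it ran from 0.000300 to 0.0450 (limma).

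Of the other members of that cluster, miR-18b-5p, miR-363-3p and miR-106a-5p were highest in WT SCC replicate 2 among the tumours. miR-92a-3p is encoded there and on chromosome 14 with the same mature sequence, so its level cannot be assigned to either. miR-18b-5p was at 4.69 there and at 3.32 to 3.55 in the other 5 tumours. miR-363-3p was at 6.23 there and at 3.32 to 4.24 elsewhere among the tumours. miR-106a-5p was at 4.92 there and at the floor in the other 11 libraries, so it was not tested. Of miR-20b-5p, miR-18b-5p, miR-363-3p and miR-106a-5p, miR-20b-5p was the only one above the floor in WT SCC replicate 1. Without WT SCC replicate 2 the differences of miR-18b-5p and miR-363-3p were 0.11 and 0.42, against -0.58 ± 0.32 and -1.04 ± 0.71 with it (adjusted p = 0.590 and 0.703), and that of miR-20b-5p was -1.0 (adjusted p = 0.00220).

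The 4 abundant members of the same seed family had differences above 0 in the TAp63-/- tumours. miR-93-5p, from the cell-cycle associated miR-106b-25 cluster inside Mcm7, was at 14.46 and 13.60 in the WT tumours and at 14.82, 14.90, 14.90 and 14.99 in the TAp63-/- tumours. All 4 TAp63-/- values were above both WT values and had an SD of 0.07, and the difference was 0.87 ± 0.25 (limma adjusted p = 0.211). Leaving out WT SCC replicate 2 gave 0.44, and leaving out WT SCC replicate 1 gave 1.30. Differences for miR-106b-5p (0.48 ± 0.33), miR-17-5p (0.47 ± 0.37) and miR-20a-5p (0.25 ± 0.33) came with overlapping groups. Among 11 tested guide strands of the miR-17 clusters and their paralogs, 1 was called lower and none higher, 6 lay above 0 and 5 below, and the median was 0.25 beside 0.07 over all tested. That median ran from 0.09 to 0.33 when any 1 tumour was left out.

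Of 6 tested rarer arms from the miR-17-92 hairpins, miR-17-3p, miR-92a-1-5p and miR-19a-5p were apart with higher values in the TAp63-/- tumours, and the other 3 overlapped. The share apart and higher was 6.07% over all tested miRNAs and 10.9% over the rarer arms of 147 hairpins. miR-17-3p was at 7.64 and 7.69 in WT tumours and at 9.01, 8.33, 8.29 and 9.06 in TAp63-/- tumours (1.01 ± 0.35, limma adjusted p = 0.345). miR-92a-1-5p was at 8.59 and 8.68 against 9.16, 9.41, 9.33 and 9.56 (0.73 ± 0.29, limma adjusted p = 0.453). miR-19a-5p was at the floor in both WT tumours and all skin libraries and at 4.72, 4.06, 4.03 and 5.63 in the TAp63-/- tumours. It was tested only through the TAp63-/- tumours, where it is high, so it had to differ and supports nothing beside the other two. miR-18a-3p was at 6.81 and 6.41 in WT tumours and at 6.06 to 7.44 in TAp63-/- tumours, miR-20a-3p at 5.22 and 4.49 against 4.06 to 5.04, and miR-19b-1-5p at the floor in both against 3.32 to 4.07. The abundant partner miR-92a-3p differed by 0.33 ± 0.43 with overlap. The miR-17, miR-19a and miR-92a-1 hairpins lie in exons of the noncoding host gene Mir17hg, on chromosome 14 in the case of miR-17 at 115043671 to 115043754 (GRCm38).

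**Figure D2:**
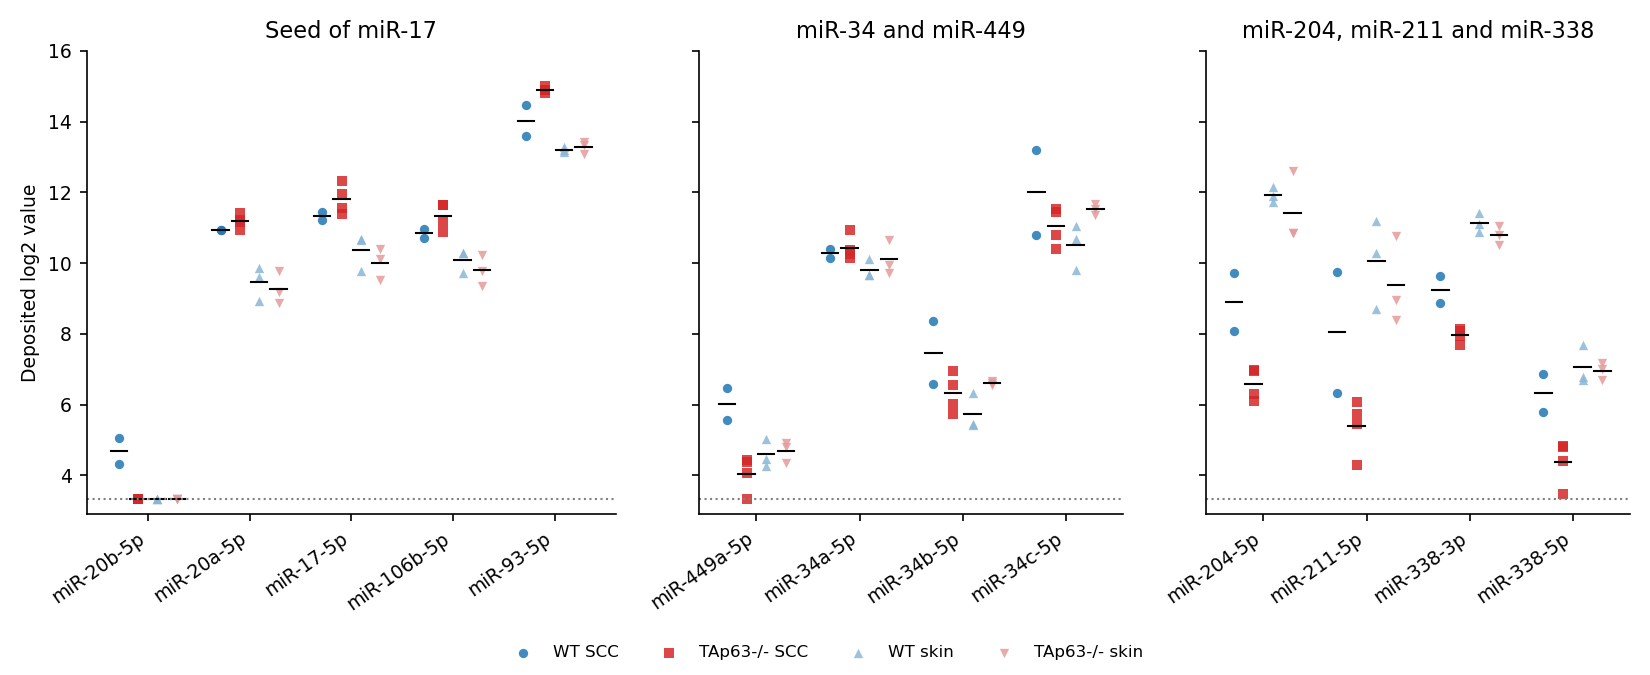
Deposited log2 values of members of 3 groups of miRNAs (1 point per library, bars at the group mean, dotted line at the floor of 3.32) in WT SCC (n = 2), TAp63-/- SCC (n = 4), WT skin (n = 3) and TAp63-/- skin (n = 3). miR-20b-5p leaves the floor only in the WT tumours, and miR-449a-5p, miR-204-5p, miR-211-5p and both arms of miR-338 are lower in every TAp63-/- tumour than in both WT tumours.

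The miR-34 and miR-449 miRNAs share a seed and restrain the cell cycle. miR-34a is a classic p53 target, and miR-449a is best known from differentiating multiciliated epithelium. miR-449a-5p was at 5.58 and 6.48 in the WT tumours and at 3.32 (the floor), 4.06, 4.36 and 4.43 in the TAp63-/- tumours. The groups were separate, and the difference was -1.99 ± 0.46 with a 95% confidence interval of -3.0 to -0.97 (limma adjusted p = 0.113). Leaving out either WT tumour gave -2.44 (replicate 1) or -1.54 (replicate 2). The WT tumours lay above WT skin (4.26 to 5.04), and TAp63-/- skin was at 4.36 to 4.91. The miR-449a hairpin is intronic to Cdc20b on chromosome 13 at 113037534 to 113037624, and the other miRNAs of that cluster in the table were at the floor throughout.

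miR-34a-5p did not follow it. Its levels were 10.40 and 10.15 in WT tumours against 10.94, 10.38, 10.15 and 10.24, a difference of 0.15 ± 0.33 (limma adjusted p = 0.888). miR-34b-5p was at 8.35 and 6.58 against 5.74, 6.95, 6.02 and 6.56 (-1.15 ± 0.52, limma adjusted p = 0.538), and its difference was -0.26 without WT SCC replicate 1. miR-34c-5p, made from the same transcript as miR-34b, was at 13.20 in WT SCC replicate 1 and between 10.40 and 11.54 in the other 5 tumours. Its difference of -0.96 ± 0.59 became 0.25 without that library. Of 6 tested arms of the miR-34 family none was called, and 4 lay below 0.

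miR-204 and miR-211 are near copies from introns of the paralogous channel genes Trpm3 (chromosome 19, 22750605 to 22750672) and Trpm1 (chromosome 7, 64205806 to 64205911). Trpm1 is a melanocyte gene, and both miRNAs form the melanocyte list used here. miR-204-5p was at 8.07 and 9.72 in the WT tumours and at 6.94, 6.29, 6.11 and 6.97 in the TAp63-/- tumours, all below the WT pair (-2.32 ± 0.56, limma adjusted p = 0.113). Leaving out WT SCC replicate 2 gave -1.49 (adjusted p = 0.360), and leaving out replicate 1 gave -3.14 (adjusted p = 0.0609). miR-211-5p was at 6.33 and 9.75 against 5.74, 5.46, 4.28 and 6.07 (-2.65 ± 0.99, limma adjusted p = 0.404). In skin the WT libraries ran from 11.73 to 12.15 for miR-204-5p and from 8.72 to 11.20 for miR-211-5p.

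WT SCC replicate 2 was the tumour nearest to skin. For miR-211-5p it lay within the range of WT skin, and without it the difference was -0.94 against -4.36 without WT SCC replicate 1. On the first principal component of all 544 miRNAs, which separates skin from tumours, it stood at -8.60 and the other 5 tumours at -14.0 to -18.8. The summed level of the melanocyte list was 8.45 and 10.73 (log2) in the WT tumours and 6.47 to 7.59 in the TAp63-/- tumours, with neither member at the floor in any of the 12 libraries. In such bulk tissue, fewer cells of a type and less RNA per cell cannot be told apart, and the part of melanocytes in this difference was not tested.

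Both arms of miR-338, an intronic miRNA of Aatk known from neural and epithelial differentiation, differed in the same direction. miR-338-3p was at 8.86 and 9.63 in the WT tumours and at 8.07, 7.93, 7.69 and 8.13 in the TAp63-/- tumours. The 4 TAp63-/- values had an SD of 0.19, and the difference was -1.29 ± 0.30 (limma adjusted p = 0.113). miR-338-5p was at 5.80 and 6.86 against 4.40, 4.82, 3.47 and 4.81 (-1.95 ± 0.49, limma adjusted p = 0.113). With library quality weights the limma adjusted p of miR-338-3p, miR-449a-5p and miR-204-5p was 0.403. With the tumours fitted alone it was 0.664 for each of them. The tumours of both genotypes were below WT skin for miR-338-3p (10.87 to 11.42), and the TAp63-/- tumours were the farther from it. The hairpin lies on chromosome 11 at 120014765 to 120014862. The neural list, which holds both arms, had 5 tested members, all below 0, with a median of -1.29. It was -0.79 without WT SCC replicate 1, and 4 of the 5 were below 0 without that library, WT SCC replicate 2 or TAp63-/- SCC replicate 2. At an unadjusted p under 0.05 by limma 3 members were lower, both arms of miR-338 and miR-9-5p. Of its defining members, miR-124-3p and miR-9-3p were at the floor in every library. Its summed level overlapped between the genotypes, at 11.78 and 12.27 in WT tumours and 9.79 to 12.76 in TAp63-/- tumours, and the part of neural tissue in the miR-338 values was not tested.

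**Figure D3:**
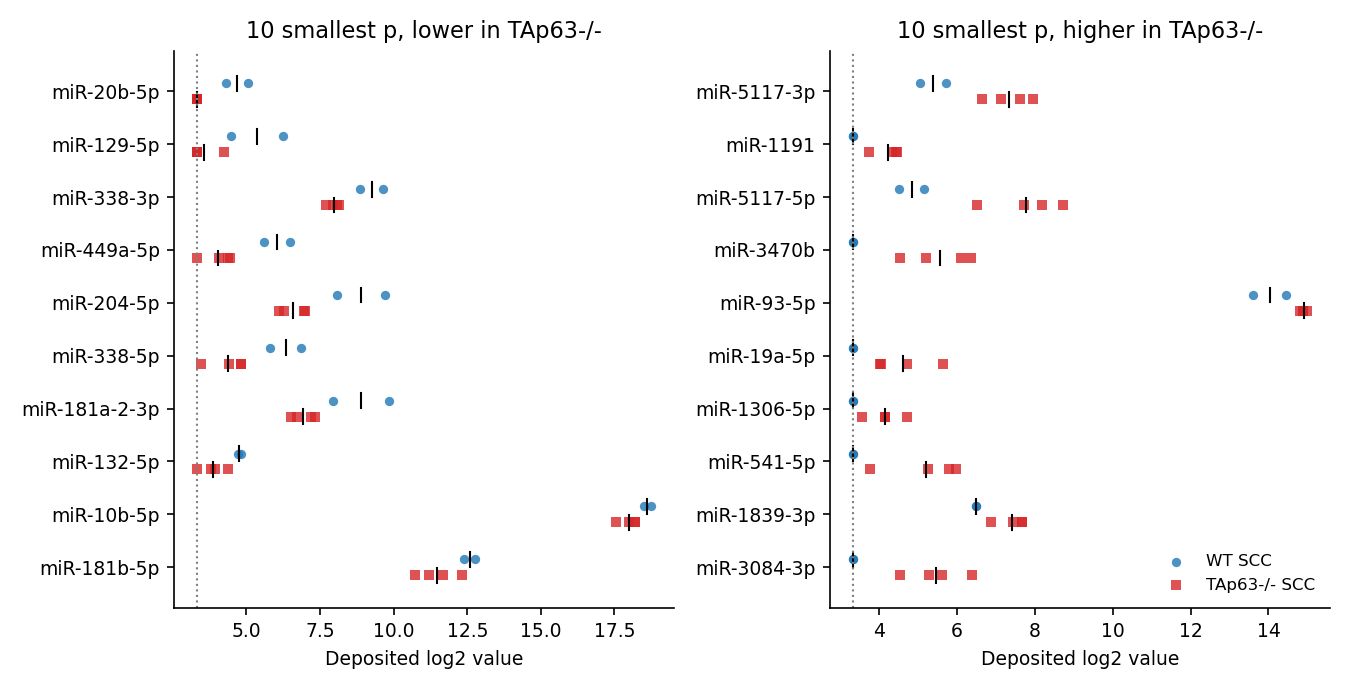
Deposited log2 values in the 2 WT and 4 TAp63-/- tumours (points, with bars at the group means) for the 10 miRNAs with the smallest p in each direction, and the floor of 3.32 as a dotted line. The groups are separate for all 20, and 6 of the 10 higher miRNAs are at the floor in both WT tumours.

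Several other miRNAs had small p-values and lower values in the TAp63-/- tumours, and none was called. miR-129-5p, a growth-inhibitory miRNA, was at 6.24 and 4.49 in the WT tumours and at the floor in 3 of the 4 TAp63-/- tumours, with 4.24 in replicate 2 (-1.81 ± 0.42, limma adjusted p = 0.113). The WT tumours, where it is high, alone met the rule of 2 libraries above the floor, so a difference was favoured in advance. Values at the floor have no spread, so its SE may be too small. Leaving out WT SCC replicate 1 gave -0.94 (adjusted p = 0.333) and leaving out WT SCC replicate 2 gave -2.68 (adjusted p = 0.00140). miR-181a-2-3p was at 9.85 and 7.93 against 7.20, 6.52, 6.70 and 7.32 (-1.96 ± 0.54, limma adjusted p = 0.202). The same omissions gave -0.996 (adjusted p = 0.786) and -2.92 (adjusted p = 0.0204). miR-181b-5p was at 12.78 and 12.38 against 11.67, 12.31, 10.71 and 11.20 (-1.10 ± 0.38, limma adjusted p = 0.345). It is encoded near miR-181a-2 on chromosome 2 and also on chromosome 1, so its level cannot be assigned to either copy. All 4 tested miRNAs with the miR-181 seed lay below 0, and the tumour groups were separate for miR-181b-5p.

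miR-10b-5p, from the Hoxd cluster, is among the most abundant miRNAs of skin and stood at the top rank in all 6 skin libraries. It was at 18.49 and 18.75 in the WT tumours and at 18.21, 18.21, 17.54 and 18.00 in the TAp63-/- tumours (-0.63 ± 0.21, limma adjusted p = 0.345). As a member of the stromal list it weighs heavily on that list's summed level, which was 18.78 and 19.05 in WT tumours and 18.27 to 18.68 in TAp63-/- tumours. Of the 7 stromal members 4 lay above 0 and 3 below, with a median of 0.04 that was -0.04 under equal sums and ran from -0.24 to 0.30 when any 1 tumour was left out, and the part of stroma in the miR-10b-5p difference was not tested. miR-218-5p was at 9.52 and 9.98 against 7.69, 8.72, 9.36 and 8.59 (-1.16 ± 0.41), and miR-132-5p at 4.71 and 4.81 against 3.32 to 4.36 (-0.91 ± 0.26).

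The miR-99, miR-100 and miR-125 miRNAs, which restrain mTOR signalling and are abundant in skin, lay below 0 for all 5 tested members. Their median was -0.83 beside 0.07 over all tested, and between -1.04 and -0.55 when any 1 tumour was left out. Without WT SCC replicate 2, 4 of the 5 were below 0 in the tumours. The shift was not particular to tumours, as the median of the same genotype difference in untreated skin was -0.69, beside 0 over all tested. miR-100-5p was at 12.89 and 13.08 in the WT tumours and at 12.53, 11.42, 12.31 and 11.45 in the TAp63-/- tumours (-1.05 ± 0.36, limma adjusted p = 0.345). For miR-125a-5p the values were 14.65 and 14.50 against 12.82, 14.07, 14.37 and 13.70 (-0.83 ± 0.46). The groups were separate for these 2 members and overlapped for the other 3, among them miR-99b-5p (-0.88 ± 0.58).

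Members of other seed families followed. Both miR-148b-3p (-0.60 ± 0.32) and miR-152-3p (-0.58 ± 0.30) were separate and lower in the TAp63-/- tumours, with adjusted p-values of 0.589 and 0.584 by limma. The 3 members of the collagen-repressing miR-29 family lay below 0, led by miR-29a-3p at 14.32 and 13.79 against 13.13, 13.99, 12.73 and 13.27 (-0.77 ± 0.35), with overlapping groups. The median of the 3 ran from -1.04 to -0.33 when any 1 tumour was left out.

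The p63-linked miRNAs were not called. The list has 8 names, of which 7 were tested, and 5 of the 7 lay below 0. Their median of -0.30 became 0.025 when WT SCC replicate 2 was left out, or -0.48 when it was replicate 1. Of these, miR-497-5p and miR-30c-2-3p were selected by the study from the same animals and carry no independent weight.

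miR-203-3p, which drives keratinocytes out of the cell cycle and into differentiation, had the smallest p of the 7. It was at 17.40 in both WT tumours and at 16.94, 16.51, 16.29 and 16.94 in the TAp63-/- tumours. The groups were separate, with a difference of -0.74 ± 0.31 (limma adjusted p = 0.515), and the values in skin were 17.40 to 18.21 (WT) and 17.23 to 18.00 (TAp63-/-). Its hairpin on chromosome 12 (112130880 to 112130955) overlaps no other annotated gene.

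miR-205-5p, a p63-responsive miRNA of basal keratinocytes, was at 17.72 and 18.00 against 18.49, 17.72, 18.21 and 18.75 (0.43 ± 0.28, limma adjusted p = 0.663), with overlap. Its partner arm miR-205-3p was at 10.85 and 10.92 against 11.45, 11.17, 12.45 and 11.07, with no overlap (0.65 ± 0.38, limma adjusted p = 0.618). As markers of the labelled tissue, miR-205-5p and miR-203-3p were high in all 6 tumours, at 17.72 to 18.75 and 16.29 to 17.40.

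miR-130b-3p, the reported direct target of TAp63, was at 6.33 and 6.86 in the WT tumours and at 6.52, 7.09, 5.69 and 6.12 in the TAp63-/- tumours. The difference was -0.23 ± 0.42, with a 95% confidence interval of -1.15 to 0.68, so a decrease of up to 1.15 log2 units was not excluded at this precision. miR-30c-2-3p was at 6.95 and 7.30 against 7.20, 6.68, 6.38 and 7.04 (-0.30 ± 0.49). miR-497-5p was at 11.10 and 11.95 against 11.02, 11.29, 11.17 and 11.23 (-0.35 ± 0.28), and without WT SCC replicate 2 its difference was 0.07. miR-195a-5p, which is made from the same transcript as miR-497, was at 11.67 and 12.82 against 11.29, 11.57, 11.73 and 10.94 (-0.87 ± 0.38, limma adjusted p = 0.538), and without WT SCC replicate 2 its difference was -0.29.

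No miRNA was called higher in the TAp63-/- tumours. Both arms of miR-5117 led that direction. miR-5117-5p was at 4.52 and 5.16 in the WT tumours and at 7.72, 8.18, 8.72 and 6.52 in the TAp63-/- tumours (2.94 ± 0.73, limma adjusted p = 0.113), while WT skin (5.62 to 7.31) lay above the WT tumours. miR-5117-3p was at 5.73 and 5.04 against 7.61, 7.14, 7.96 and 6.65, and at the floor in all skin libraries (1.95 ± 0.43, limma adjusted p = 0.113). Without the trend and robust steps of limma its adjusted p was 0.0454, and over the other alternatives it ran from 0.0542 to 0.664.

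Of the more abundant miRNAs (the top 40% by mean level in the tumours), miR-93-5p and miR-17-3p had the smallest p, and next came miR-489-5p, at 7.15 and 8.45 against 9.86, 10.44, 11.15 and 8.53 (2.19 ± 0.77, limma adjusted p = 0.345). miR-5121 was at 7.93 and 8.74 against 9.98, 10.22, 10.57 and 8.46 (1.47 ± 0.59), with overlap. miR-32-5p (0.73 ± 0.32) and miR-27b-5p (0.85 ± 0.38) were separate with adjusted p-values of 0.538. Low-level miRNAs at the floor in both WT tumours were miR-1191 (3.73 to 4.46 in TAp63-/- tumours), miR-3470b (4.52 to 6.36), miR-1306-5p (3.56 to 4.72), miR-541-5p (3.78 to 5.97) and miR-3084-3p (4.54 to 6.38). Of these, miR-1191 and miR-1306-5p were tested only through the TAp63-/- tumours and had to differ. Without TAp63-/- SCC replicate 3 miR-1191 was called (1.09, limma adjusted p = 0.0233). miR-1839-3p was at 6.48 in both WT tumours and at 6.88 to 7.67 in the others.

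The arms of a hairpin were also counted apart. Of 147 hairpins with both arms tested, 16 rarer arms (10.9%) and 6 more abundant arms (4.08%) were above both WT tumours in every TAp63-/- tumour, while 5 (3.4%) and 8 (5.44%) were below. Over all tested miRNAs the shares were 6.07% and 4.23%. Near copies such as miR-3096a-3p and miR-3096b-3p, both among the 16, count separately. The median difference was 0.12 for the rarer and -0.02 for the more abundant arms. The 2 kinds of arm were defined by their mean over the 12 libraries, after the values had been seen, and no test of this split was made. Rarer arms lie nearer the floor, where the TAp63-/- libraries detected more miRNAs, and the part of detection was not tested.

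Squamous tumour miRNAs gave no call, with 5 of 7 tested members above 0 and a median of 0.84 that ran from 0.36 to 0.84 when any 1 tumour was left out. The 2 members below 0 were miR-135b-5p (-2.54), which rests on 1 WT tumour as given below, and miR-9-5p. Both had an unadjusted p under 0.05 by limma, and none of the 5 members above 0 did. miR-21a-5p, the most abundant miRNA in 5 of the 6 tumours, and miR-31-5p (15.72 in both WT tumours and 14.74, 17.40, 18.00 and 16.09 in the TAp63-/- tumours) had differences of 0.38 ± 0.42 and 0.84 ± 0.99. Quantile normalization caps the former, which held the top rank. The partner arm miR-21a-3p was at 13.70 and 12.22 against 13.99, 14.25, 14.99 and 13.99, with separate groups (1.34 ± 0.64, limma adjusted p = 0.538), and the difference was 0.60 without WT SCC replicate 2. The hypoxia-induced miR-210-3p was at 12.25 and 12.07 against 13.70, 13.48 and 13.67 in 3 TAp63-/- tumours and 11.20 in replicate 2. Its difference was 0.86 ± 0.58 (limma adjusted p = 0.703), and 1.46 without that library (adjusted p = 0.0220), while over the other alternatives the adjusted p ran from 0.670 to 0.960.

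Single tumours carried several large values. miR-135b-5p, known as an oncogenic miRNA of epithelial tumours, was at 8.46 in WT SCC replicate 1, at 3.41 in TAp63-/- SCC replicate 4 and at the floor in the other 10 libraries. In the imprinted Sfmbt2 cluster, miR-467c-5p, miR-467d-5p and miR-467e-5p were also highest in WT SCC replicate 1, at 5.88, 6.56 and 5.42. Of 11 tested members of that cluster 8 lay below 0, with a median of -0.86. Leaving out WT SCC replicate 1 gave 0.16, and leaving out WT SCC replicate 2 gave -1.98. Without WT SCC replicate 2, 13 miRNAs were called, all lower, among them miR-135b-5p (-5.11), miR-467d-5p (-2.70) and miR-467e-5p (-1.93), and WT SCC replicate 1 alone is then assumed to vary like the other groups. Without TAp63-/- SCC replicate 3 miR-467c-5p was called (-1.80, limma adjusted p = 0.0459, against -1.38 ± 0.48 and 0.345 with it).

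TAp63-/- SCC replicate 2 stood apart for epithelial miRNAs. The miR-200 family, which keeps cells epithelial by repressing Zeb1 and Zeb2, was low there for all 5 members. miR-141-3p was at 11.73 against 15.13 to 16.17 in the other 5 tumours, miR-200b-3p at 11.07 against 13.48 to 14.41, and miR-429-3p at 10.35 against 12.59 to 13.30. miR-200a-3p (10.24 against 11.89 to 13.55) and miR-200c-3p (8.99 against 10.79 to 12.63) followed. The 2 Hox-cluster miRNAs miR-196a-5p (3.60 against 8.47 to 10.64) and miR-196b-5p (at the floor against 4.33 to 9.94) had the largest shortfalls of all 544 miRNAs against the median of the other 5 tumours, and miR-224-5p the largest excess, at 10.54 against 5.61 to 8.74. Its miR-205-5p, at 17.72, was the lowest of the TAp63-/- tumours and level with the lower WT tumour. Without this library the family's median genotype difference was 0.24, against -0.47 with it.

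**Figure D4:**
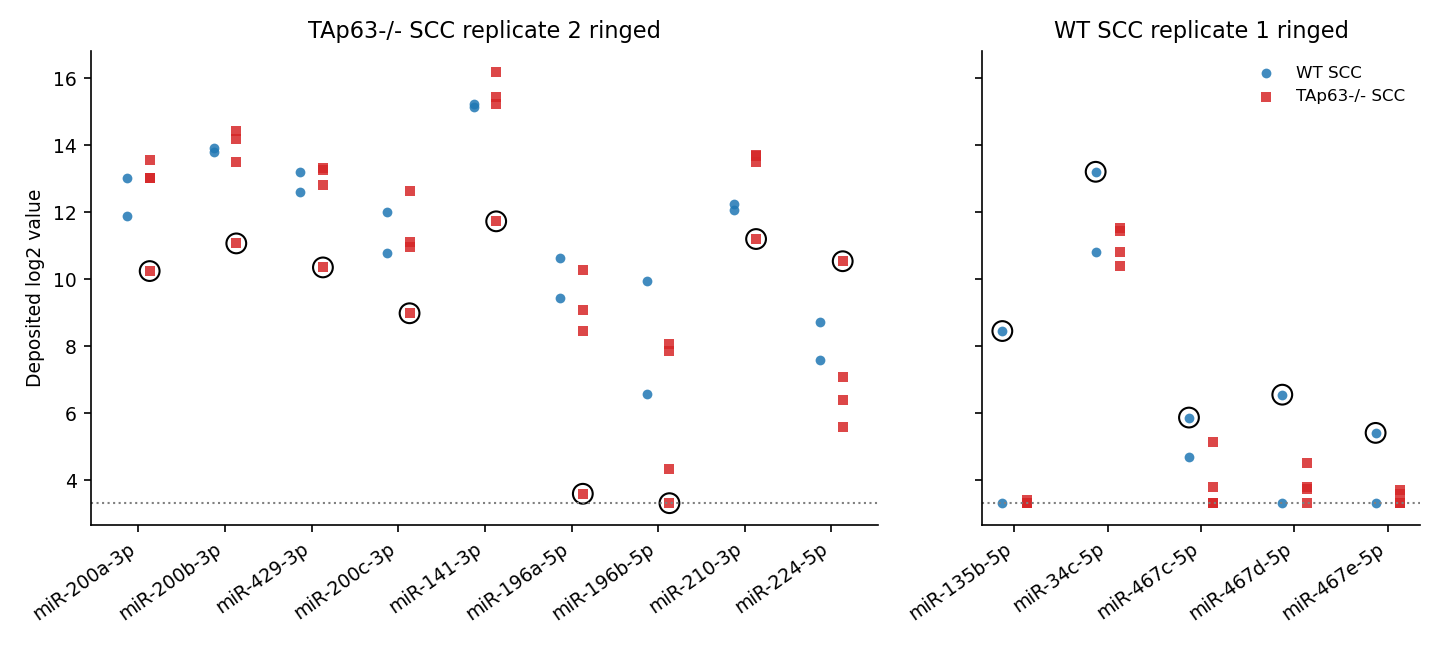
Deposited log2 values in the 2 WT and 4 TAp63-/- tumours (1 point per library, dotted line at the floor of 3.32). Rings mark TAp63-/- SCC replicate 2 on the left, low for the miR-200 family, miR-196 and miR-210-3p and high for miR-224-5p, and WT SCC replicate 1 on the right, where miR-135b-5p reaches 8.46.

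Among the marker lists of other cell types, the summed melanocyte and stromal levels were lower in every TAp63-/- tumour than in both WT tumours, as given above, and the sums of the other lists overlapped. Smooth muscle miRNAs had 3 of 4 tested members below 0, with miR-143-5p at 5.06 and 5.57 against 3.55 to 4.07 and miR-145a-5p at 10.69 and 11.20 against 9.75 to 10.69, while their summed level overlapped (17.56 and 17.74 against 17.08 to 18.49). Endothelial miR-126-3p was at 13.27 and 13.48 against 12.73 to 13.20 (-0.42 ± 0.23) with separate groups, while the sums over its list overlapped (16.01 and 16.31 against 15.87 to 16.50). Summed striated muscle (12.53 and 14.94 against 12.22 to 13.97), leukocyte (15.60 and 16.34 against 14.97 to 16.52) and erythroid levels (14.63 and 15.87 against 14.07 to 16.58) overlapped between the genotypes. In the imprinted Dlk1-Dio3 cluster (42 tested), miR-541-5p, miR-370-3p and miR-494-3p were separate and higher (7.14%, beside 6.07% of all tested) and none was called. All 3 were at the floor in both WT tumours. The cluster's median of 0.12 ran from -0.04 to 0.32 when any 1 tumour was left out.

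The same genotype contrast in untreated skin gave no call in either direction (0% higher and 0% lower, with 31 miRNAs or 5.7% at an unadjusted p under 0.05 by limma). With library quality weights 22 miRNAs were called there. The largest skin difference was that of miR-21a-3p, at 3.24 ± 0.61 (limma adjusted p = 0.121), from 5.42 to 7.51 in WT and 8.80 to 10.60 in TAp63-/- skin. In skin, 37 miRNAs (6.8%) were separate and higher and 28 (5.15%) separate and lower in the TAp63-/- libraries. Separate and higher in both tissues were miR-21a-3p, miR-370-3p and miR-582-3p, which are 9.09% of the 33 in tumours and 8.11% of the 37 in skin, shares not far from the background. No miRNA was separate and lower in both, and 2 were higher in tumours and lower in skin.

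The difference between the genotype effect in tumours and that in skin was called for no miRNA (0% in each direction), with 41 (7.54%) at an unadjusted p under 0.05 by limma. The smallest adjusted p was 0.173, for miR-20b-5p, and rests on the same floor values. miR-34c-3p had opposite signs in the 2 tissues, at -1.34 ± 0.63 in tumours (-0.15 without WT SCC replicate 1) and 1.35 ± 0.60 in skin, and the test of their difference gave an adjusted p of 0.450. For the leading tumour miRNAs the skin differences were 0.09 ± 0.44 for miR-449a-5p, -0.50 ± 0.53 for miR-204-5p, -0.34 ± 0.28 for miR-338-3p and 0.08 ± 0.24 for miR-93-5p, and the adjusted p-values of the tests of the difference lay between 0.442 and 0.560.

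**Figure D5:**
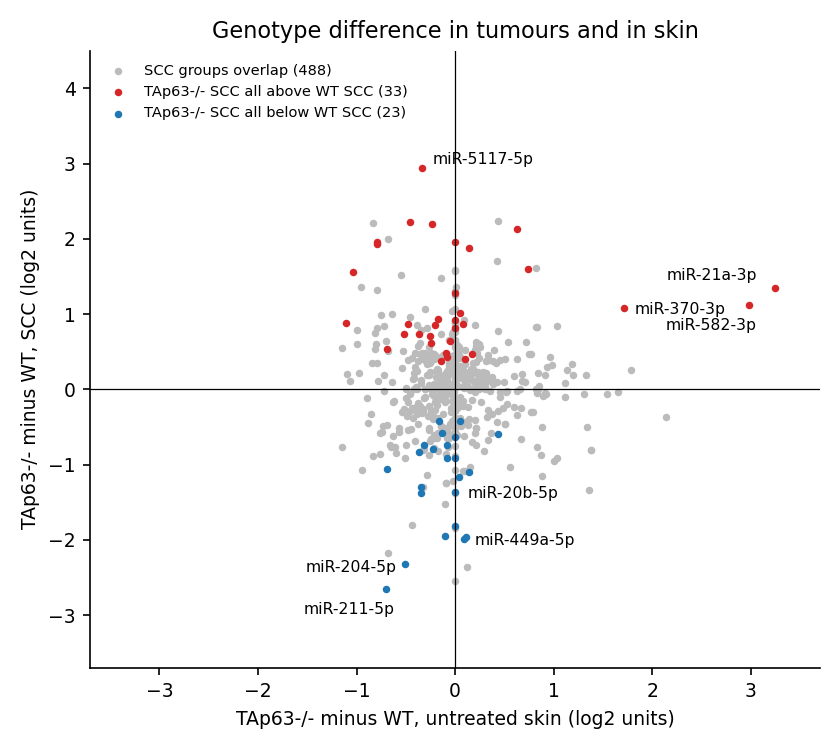
TAp63-/- minus WT difference in SCC (vertical axis) against the same difference in untreated skin (horizontal axis), both in log2 units, for 544 miRNAs. miR-21a-3p, miR-582-3p and miR-370-3p are separate and higher in both tissues (3 of 33 in tumours and of 37 in skin), while miR-204-5p, miR-211-5p and miR-449a-5p lie far from 0 in the tumours and between -0.70 and 0.09 in skin.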

How the data were processed

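Small RNA libraries from 12 mouse samples were analysed, with total RNA extracted with a miRVana kit, per the labels' protocols. The authors deposited 1 table of log2 values (1251 miRNAs), quantile normalized as its near-equal distributions show, the lowest value standing for 10 on the linear scale. Per the submitters' processing notes the genome was mm10. No aligner or counting tool is named in those notes or labels. Depth is unknown, so no counting interval is given. Fitted were 544 miRNAs, each exceeding that lowest value in 2 or more of the libraries, with limma 3.58.1 (R 4.3.3) as 4 group means with trended, robust variances (8 residual degrees of freedom), and p-values were Benjamini-Hochberg adjusted within each contrast. Replicate numbers follow accession order and only name libraries. Groups do not overlap where every value of one exceeds every value of the other. miRNA members and lists were chosen with earlier results of these data known. Named are the 10 miRNAs of smallest p per direction (or 12 called), up to 8 per direction in the upper 40% by tumour level, all p63-linked miRNAs, up to 4 per list and relatives of called miRNAs. Of 75 miRNAs with differences, 10 fall outside that rule and were named after their values were seen: miR-152-3p, miR-148b-3p, miR-18b-5p, miR-205-3p, miR-196a-5p, miR-196b-5p, miR-582-3p, miR-21a-5p, miR-31-5p and miR-224-5p. So were those named only for levels or copies (miR-200a-3p, miR-106a-5p, miR-18a-3p, miR-20a-3p, miR-19b-1-5p, miR-3096a-3p and miR-3096b-3p). The fit was tested on simulated data in which all groups had the same spread, so the larger spread of the tumours was not covered. Hairpins were placed with GENCODE M21 (GRCm38).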

Additional observations from a re-analysis of the deposited data

Results flagged for a closer look

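Among the 4 TAp63-/- tumours, 1 library lay farther from the other 3 than Dixon's 95% critical value of 0.829 allows for 8 of the 73 named miRNAs whose values differed between these tumours. Chance alone gives about 1 in 20 where all values vary. That rate does not apply to miR-129-5p, miR-135b-5p and miR-669l-5p, for which the other 3 tumours sit at the floor and any value above it must stand apart. miR-200a-3p was added after its levels were seen. TAp63-/- SCC replicate 2 was low for miR-210-3p (11.20, the others 13.48 to 13.70), miR-429-3p (10.35, the others 12.82 to 13.30), miR-200a-3p (10.24, the others 13.01 to 13.55) and miR-143-5p (3.55, the others 4.06 to 4.07), and it was above the floor for miR-129-5p (4.24, the others 3.32). miR-1191 was at 3.73 in TAp63-/- SCC replicate 3 against 4.34 to 4.46. miR-135b-5p at 3.41 in replicate 4 and miR-669l-5p at 3.34 in replicate 3 stood just above the floor, at which the other 3 tumours lay.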

How the results depend on the processing

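No paired analysis was possible because nothing in the labels pairs a TAp63-/- tumour with a WT tumour, and replicate numbers only name libraries. Across 24 alternatives the tumour comparison called 1 miRNA in 16 and miR-20b-5p in 21. It called 0 with the tumours fitted alone, 0 with at least 6 libraries above the floor and 0 with all 6 SCC libraries above it (chosen after seeing the data; miR-20b-5p is then not tested), 2 without trend and robust steps, and 1 to 13 with 1 library left out (2 without WT SCC replicate 1, 13 without WT SCC replicate 2, 2 without TAp63-/- SCC replicate 2 and 3 without replicate 3). Skin gave 22 calls with library quality weights and 0 to 2 with 1 library left out, and the difference between tissues 0 to 11. The count of separate miRNAs ran from 56 to 180 with 1 library left out. Of the 75 miRNAs named, 61 kept their sign throughout. The other 14 turned only when 1 library was left out, with ranges of -0.50 to 0.030 (miR-130b-3p), -5.11 to 0.022 (miR-135b-5p), -1.05 to 0.44 (miR-141-3p), -1.26 to 0.11 (miR-18b-5p), -0.94 to 0.18 (miR-200b-3p), -1.08 to 0.18 (miR-200c-3p), -0.021 to 0.27 (miR-34a-5p), -2.16 to 0.25 (miR-34c-5p), -2.49 to 0.42 (miR-363-3p), -0.77 to 0.24 (miR-429-3p), -2.70 to 0.53 (miR-467d-5p), -1.93 to 0.16 (miR-467e-5p), -0.77 to 0.075 (miR-497-5p) and -1.0 to 0.0032 (miR-669l-5p). The cause was not tested. With 2 WT tumours, either one decides most WT values.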
